A study of Mus musculus with 8 samples.

Results

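The genes described here are 10 members of the FGF4-ERK pathway in mouse embryonic stem cells: the ligand Fgf4, the receptor Fgfr1, the feedback inhibitors Spry2, Spry4, Spred1 and Dusp6, the ETS factors Etv4 and Etv5, and the immediate early factors Egr1 and Fos. They were taken by name, and all 14 array probes annotated to them, of 45281 on the array, were examined. Of these, 11 were detected on at least 2 arrays at a detection p under 0.05. They represent 9 of the 10 members, out of 10930 genes tested in all. Spry2 was the member left out, because its only probe was detected on 0 of 8 arrays, with detection p-values between 0.240 and 0.954.

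RNA came from E14 cells, an embryonic stem cell line of the mouse, grown in medium with 15% serum and 1500 U/ml leukaemia inhibitory factor (LIF). The cells received 1 of 3 short hairpin RNAs against Dnmt3l (groups shDnmt3L1, shDnmt3L2 and shDnmt3L3) or a hairpin against GFP (shGFP). Every group, shGFP included, was selected with puromycin for 3 days, and each had 2 arrays, 8 in all. Dnmt3l encodes the catalytically inactive partner of the de novo DNA methyltransferases. By the labels the 2 arrays of each group are duplicates, with no word on separate cultures. Every p-value here reflects the spread between duplicates, which may be technical, apart from those with hairpin as a random block, explained below. The shGFP group carries a single hairpin.

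The arrays had 18111 to 19241 detected probes and median intensities of 96.1 to 104. Dnmt3l had 36.8% of its shGFP level left with shDnmt3L1, 45.4% with shDnmt3L2 and 15.8% with shDnmt3L3. All 9 listed pluripotent stem cell markers were detected, and their summed level was 23330 to 26560 on hairpin arrays and 23350 to 23650 on shGFP arrays. Of 13 fibroblast and feeder cell markers, 5 were detected on at least 2 arrays (Col1a1, Col1a2, Col3a1 and Dcn were not), and their sum was 1517 to 2119 on hairpin arrays against 925 to 944 on shGFP arrays. Of 12 primitive endoderm markers, 6 were detected (Gata4, Gata6, Sox17 and Pdgfra were not), with sums of 618 to 678 on hairpin arrays against 348 to 368 on shGFP arrays. Both of these sums were higher on all 6 hairpin arrays than on the shGFP arrays, and so moved with the comparisons below, where their part was not tested. Not every marker rose. Over the 3 hairpins 4 of the 5 and 5 of the 6 were higher at an adjusted p under 0.05 in limma, as were 27.5% of all genes. Among the latter, Lamb1 was detected on the shDnmt3L1 and shDnmt3L2 arrays and on no others. It entered the count and the sum through those arrays alone, so its call lends no support. Sox7 was lower (-0.22), and Vim was 0.02 over the 3 hairpins and -0.44 with shDnmt3L1. Dab2 was 0.07 with shDnmt3L3, and Lama1 was -0.13 with shDnmt3L1. In such bulk RNA, fewer cells of a type and less RNA per cell cannot be told apart.

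FGF4 is the main FGF that undifferentiated mouse embryonic stem cells secrete, and it acts back on the same cells. It binds FGF receptors, chiefly FGFR1 in these cells, and the signal runs through RAS, RAF and MEK to the kinases ERK1 and ERK2. Active ERK induces immediate early factors such as EGR1 and FOS, the ETS factors ETV4 and ETV5, and inhibitors (Sprouty and Spred proteins, and the ERK phosphatase DUSP6) that close a negative feedback loop. ERK signalling in these cells is known for moving them out of the naive state, which LIF and ERK pathway inhibition hold. The messenger RNA of these targets is often read as a sign of ERK activity, while ERK phosphorylation itself was not measured here.

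The 150 bases before the annotated start of 5 members are printed to show what kind of promoter lies at genes that were higher with all 3 hairpins (Fgf4, Spred1), lower with all 3 (Dusp6), or differently affected by them (Etv5, Fos). They come from the RefSeq promoter table of GRCm38.p6, and each is written 5′ to 3′ on the gene's own strand. Windows were used for 6 of the 10 members, and none for Fgfr1, Spry4, Etv4 or Egr1. Spry4 and Egr1, also lower with all 3 hairpins, are therefore not shown. The windows are chr7:144861236-144861385 on the + strand for Fgf4, chr2:117120921-117121070 on the + strand for Spred1 and chr10:99263081-99263230 on the + strand for Dusp6. For Etv5 the window is chr16:22439571-22439720 on the - strand, at the more upstream of 2 listed starts, and for Fos it is chr12:85473740-85473889 on the + strand. Capitals mark the motifs that were searched on both strands: the ETS core GGAAGT, the cyclic AMP response half-site TGACGT, the TATA spellings TATAAA and TATATA, the SP1 box GGGCGG and CCAAT.
Fgf4: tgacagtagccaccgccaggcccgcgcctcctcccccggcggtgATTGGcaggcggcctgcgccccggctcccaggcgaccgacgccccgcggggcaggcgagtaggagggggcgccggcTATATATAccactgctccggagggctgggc
Spred1: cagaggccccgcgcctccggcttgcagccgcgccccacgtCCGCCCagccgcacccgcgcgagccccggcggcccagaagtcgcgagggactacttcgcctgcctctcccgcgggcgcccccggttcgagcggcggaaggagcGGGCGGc
Dusp6: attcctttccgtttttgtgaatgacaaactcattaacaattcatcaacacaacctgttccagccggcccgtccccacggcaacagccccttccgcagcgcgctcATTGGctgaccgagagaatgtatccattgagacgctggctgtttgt
Etv5: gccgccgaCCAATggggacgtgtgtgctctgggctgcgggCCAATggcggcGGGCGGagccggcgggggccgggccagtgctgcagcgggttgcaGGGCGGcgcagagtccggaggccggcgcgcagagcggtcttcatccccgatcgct
Fos: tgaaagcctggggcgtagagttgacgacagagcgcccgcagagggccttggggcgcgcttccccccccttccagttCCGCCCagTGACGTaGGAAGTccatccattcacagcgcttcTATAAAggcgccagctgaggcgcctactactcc

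The Fos window held 4 of the searched motifs, a GGGCGG on the opposite strand followed by the cyclic AMP response half-site, the ETS core and a TATA spelling, with no overlap between them. The Fgf4 window held a CCAAT on the opposite strand and a TATATATA run that counts as 2 overlapping TATATA. Spred1 and Etv5 had 2 GGGCGG each and neither TATA spelling, Etv5 had 2 CCAAT in addition, and Dusp6 had 1 CCAAT on the opposite strand. Over the 32851 windows of this length that were counted, 13.6% held GGAAGT, 5.1% TGACGT, 7.6% TATAAA, 3.0% TATATA, 28.6% GGGCGG and 24.5% CCAAT. These letters are a description of the windows and were not related to any change in expression.

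Fgf4, the ligand, was higher with each of the 3 hairpins. Its normalized log2 level was 6.24 and 6.03 on the shDnmt3L1 arrays, 6.24 and 6.15 on the shDnmt3L2 arrays and 6.78 and 6.79 on the shDnmt3L3 arrays, against 5.59 and 5.81 on the shGFP arrays. All 6 hairpin arrays lay above both shGFP arrays, and the shDnmt3L3 arrays lay above all others. The mean over the 3 hairpins was 0.67 ± 0.08 log2 units (SE) above shGFP, or 1.59-fold (limma, adjusted p = 0.000267). The rise was 0.44 with shDnmt3L1 (adjusted p = 0.00797), 0.49 with shDnmt3L2 (adjusted p = 0.00584) and 1.09 with shDnmt3L3 (limma, adjusted p = 5.7e-05). The level with shDnmt3L3 exceeded that with shDnmt3L1 by 0.65 (adjusted p = 0.00169) and that with shDnmt3L2 by 0.59 (limma, adjusted p = 0.00213). Between shDnmt3L1 and shDnmt3L2 the difference was -0.06 with a 95% interval of -0.29 to 0.18. The call with shDnmt3L1 was lost without its replicate 1 (0.33, adjusted p = 0.0608 in limma) and without shGFP replicate 1 (0.33, adjusted p = 0.0542 in limma).

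Fgfr1, the receptor, was detected with the Dnmt3l hairpins and not on either shGFP array. Its brighter probe read 5.71 and 5.61 in shDnmt3L1 cells, 5.45 and 5.49 in shDnmt3L2 cells and 5.07 and 5.51 in shDnmt3L3 cells, against 4.80 and 4.62 in shGFP cells, where detection p was 0.0588 and 0.120. The 6 hairpin arrays all lay above both shGFP arrays. The shGFP level is only a bound, so the change is given against the higher of the dim probe's own value and the lowest normalized value among detected probes of that array. On that basis Fgfr1 was at least 1.55-fold higher over the 3 hairpins, and at least 1.76-fold, 1.54-fold and 1.36-fold higher with shDnmt3L1, shDnmt3L2 and shDnmt3L3. The adjusted p of 0.000582 in limma belongs to the fitted difference of 0.77 from the undetected shGFP values, not to these bounds. Fgfr1 passed the detection filter through the hairpin arrays alone, so its p and its call lend no support. The second Fgfr1 probe was detected on 0 arrays and gives no second reading. An F test for any difference among the 3 hairpins gave an adjusted p of 0.121 in limma.

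**Figure D1:**
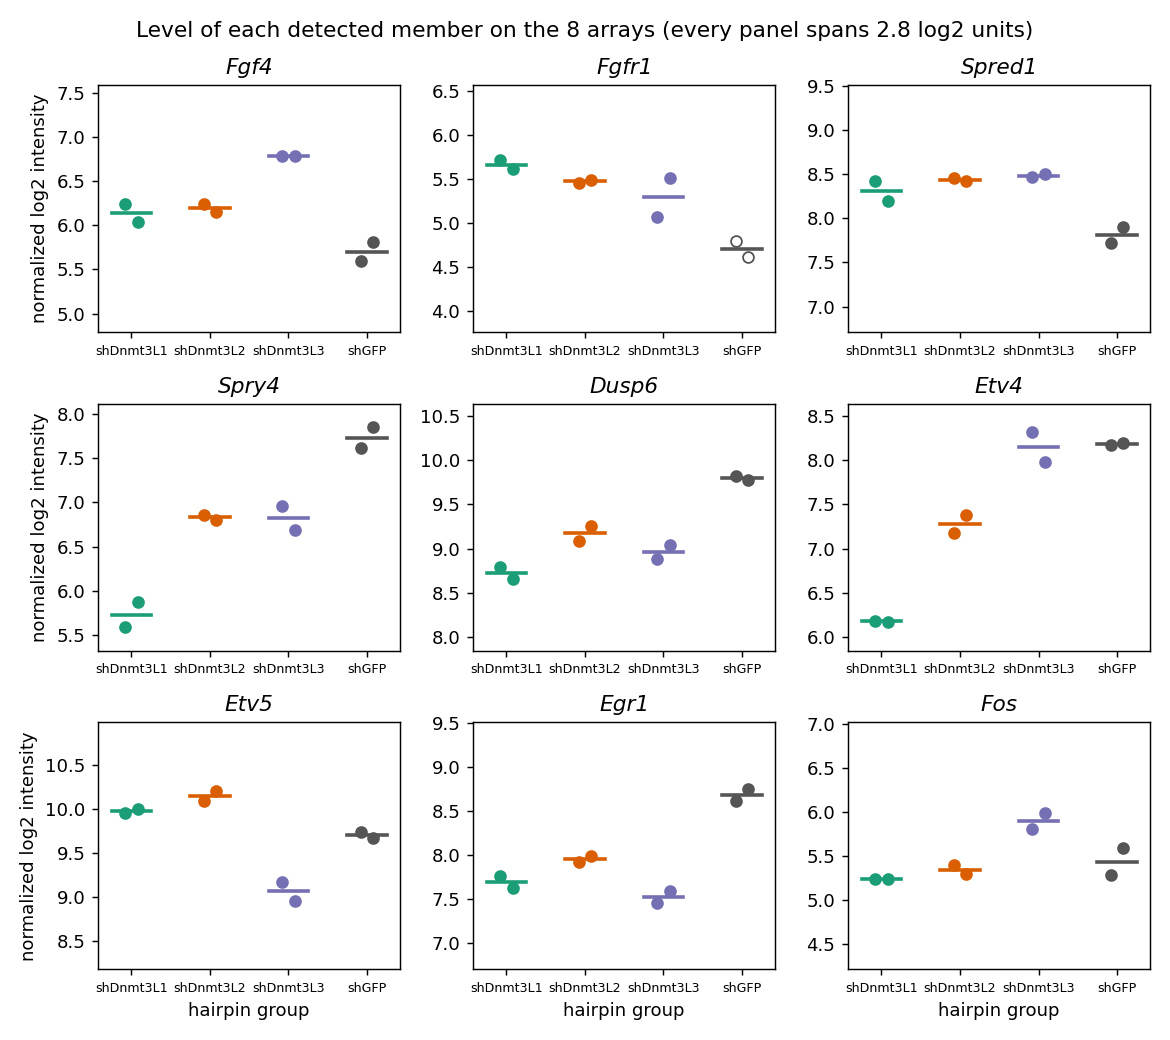
Normalized log2 intensity (vertical axis, every panel spanning the same number of log2 units) of the 9 detected members on the 8 arrays, by hairpin group along the horizontal axis. Each point is 1 array, each bar is the mean of 2 arrays, and open points mark arrays where the probe was not detected. Fgf4, Fgfr1 and Spred1 lie higher on all 6 hairpin arrays than with shGFP, and Spry4, Dusp6 and Egr1 lie lower on all 6.

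The feedback inhibitors did not move as 1 group: Spry4 and Dusp6 fell with every hairpin and Spred1 rose with every hairpin. Sprouty and Spred proteins restrain RAS-RAF signalling, and DUSP6 removes the activating phosphates from ERK. Spry4 read 5.59 and 5.87 in shDnmt3L1 cells, 6.86 and 6.81 in shDnmt3L2 cells and 6.96 and 6.69 in shDnmt3L3 cells, against 7.61 and 7.85 in shGFP cells. All 6 hairpin arrays were below both shGFP arrays, and the shDnmt3L1 arrays were the lowest. Over the 3 hairpins Spry4 fell by 1.27 ± 0.11 log2 units, to 0.414 times the shGFP level (limma, adjusted p = 3.6e-05). The single-hairpin changes were -2.0 for shDnmt3L1, -0.90 for shDnmt3L2 and -0.91 for shDnmt3L3, each past the threshold. The fall with shDnmt3L1 exceeded that with shDnmt3L2 by a difference of -1.10 (limma, adjusted p = 0.00375), while shDnmt3L3 and shDnmt3L2 differed by -0.01 with a 95% interval of -0.31 to 0.29.

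Dusp6 has 3 probes on the array, of which 2 were detected on all 8 arrays and 1 on none. The brightest read 8.79 and 8.66 in shDnmt3L1 cells, 9.09 and 9.26 in shDnmt3L2 cells and 8.88 and 9.04 in shDnmt3L3 cells, against 9.83 and 9.78 in shGFP cells. No hairpin array reached the shGFP arrays, which differ from each other by less than any hairpin group's distance from them. Over the 3 hairpins Dusp6 fell by 0.85 ± 0.08 log2 units, to 0.555 times the shGFP level (limma, adjusted p = 5.5e-05). The single-hairpin changes were -1.08, -0.63 and -0.84 with shDnmt3L1, shDnmt3L2 and shDnmt3L3. The other detected probe gave -0.93 over the 3 hairpins and -1.10, -0.67 and -1.0 with the single hairpins, all past the threshold over all detected probes. The fall with shDnmt3L1 was larger than with shDnmt3L2 by a difference of -0.45 (limma, adjusted p = 0.0274), a call that was lost when any 1 of the 4 arrays of these groups was left out (adjusted p from 0.0631 to 0.143).

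Spred1, also an inhibitor of RAS to RAF signalling, moved the other way. It read 8.43 and 8.19 in shDnmt3L1 cells, 8.46 and 8.42 in shDnmt3L2 cells and 8.469 and 8.497 in shDnmt3L3 cells, against 7.73 and 7.91 in shGFP cells. Every hairpin array was above both shGFP arrays, and the shDnmt3L1 and shDnmt3L2 arrays overlapped. The rise over the 3 hairpins was 0.60 ± 0.08 log2 units, or 1.51-fold (limma, adjusted p = 0.000436), with 0.49, 0.62 and 0.67 for shDnmt3L1, shDnmt3L2 and shDnmt3L3. The F test among the hairpins did not pass (limma, adjusted p = 0.335), and the largest pairwise difference, shDnmt3L3 over shDnmt3L1, was 0.17 with a 95% interval of -0.06 to 0.40.

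The ETS factors Etv4 and Etv5, closely related transcription factors induced through FGF receptors, separated by hairpin and from each other. Etv4 read 6.18 and 6.17 in shDnmt3L1 cells, 7.17 and 7.38 in shDnmt3L2 cells and 8.32 and 7.99 in shDnmt3L3 cells, against 8.17 and 8.19 in shGFP cells. The shDnmt3L1 and shDnmt3L2 arrays were all below shGFP and did not overlap, while the shDnmt3L3 arrays lay on either side of shGFP. Etv4 fell by 2.01 log2 units with shDnmt3L1, to 0.249 times the shGFP level (limma, adjusted p = 1.1e-05), and by 0.90 with shDnmt3L2 (adjusted p = 0.000664 in limma). With shDnmt3L3 the change was -0.03, with a 95% interval of -0.30 to 0.24 (adjusted p = 0.860 in limma). The mean over the 3 hairpins, -0.98 ± 0.10, therefore averages unlike values. The differences between hairpins were -1.10 for shDnmt3L1 against shDnmt3L2, 1.98 for shDnmt3L3 against shDnmt3L1 and 0.87 for shDnmt3L3 against shDnmt3L2, each past the threshold.

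Etv5 had another order. Its brighter probe read 9.955 and 9.998 in shDnmt3L1 cells, 10.09 and 10.21 in shDnmt3L2 cells and 9.17 and 8.96 in shDnmt3L3 cells, against 9.74 and 9.67 in shGFP cells. The shDnmt3L1 and shDnmt3L2 arrays lay above both shGFP arrays and the shDnmt3L3 arrays below both. Etv5 rose by 0.44 with shDnmt3L2 (adjusted p = 0.00598) and fell by 0.64 with shDnmt3L3 (limma, adjusted p = 0.00055). Its rise of 0.27 with shDnmt3L1 (limma, adjusted p = 0.0400) was lost under 11 of 20 alternatives, among them the replicate block (adjusted p = 0.0529). Leaving out either shDnmt3L1 array (0.29 without replicate 1, 0.25 without replicate 2) or either shGFP array (0.30 without replicate 1, 0.24 without replicate 2) also ended that call. The mean over the 3 hairpins was 0.03 (limma, adjusted p = 0.800). A second detected probe called only the fall with shDnmt3L3 (-0.85) and gave 0.04 with shDnmt3L1 and 0.24 with shDnmt3L2, neither past the threshold. Both probes placed shDnmt3L3 below shDnmt3L2, by -1.08 and -1.09.

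**Figure D2:**
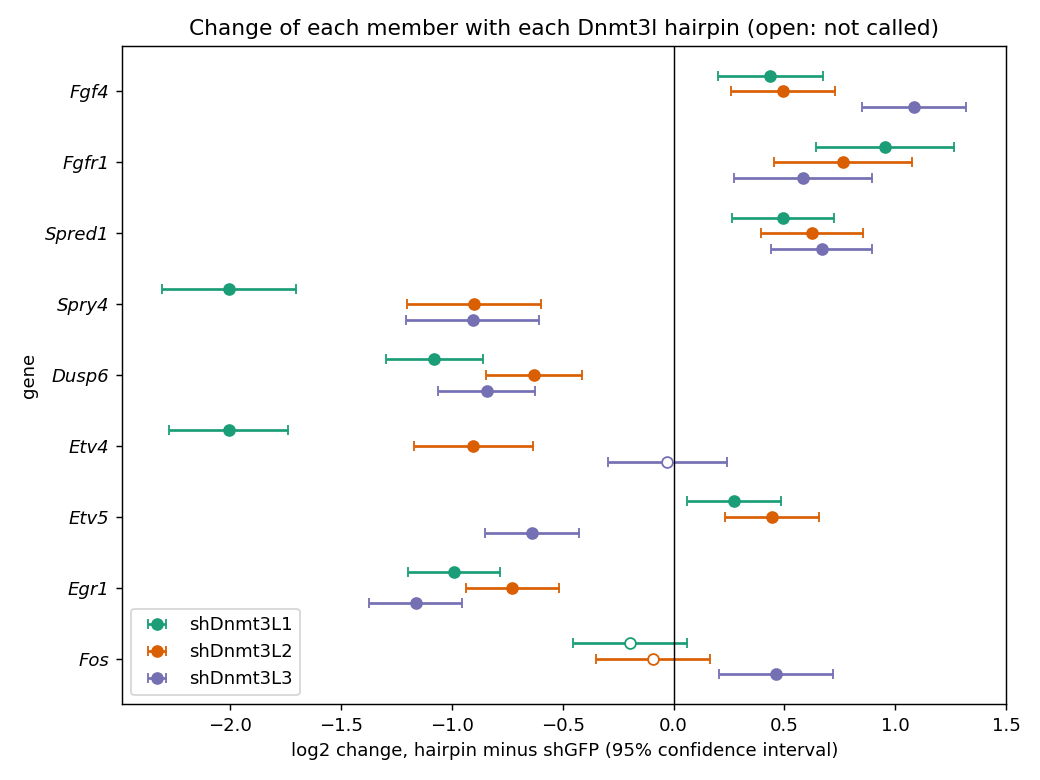
Log2 change against shGFP (horizontal axis) of the 9 detected members (vertical axis) with shDnmt3L1, shDnmt3L2 and shDnmt3L3. Points are the limma estimates from 2 arrays per group, lines are their 95% confidence intervals, and open points are not called. Etv4 spans -2.01 to -0.03 across hairpins, Etv5 and Fos change sign between hairpins, and the Fgfr1 points rest on a shGFP level below detection.

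Egr1 and Fos, transcription factors switched on within minutes of ERK activation, differed from each other. Egr1 read 7.77 and 7.63 in shDnmt3L1 cells, 7.93 and 7.99 in shDnmt3L2 cells and 7.46 and 7.59 in shDnmt3L3 cells, against 8.62 and 8.75 in shGFP cells. All 6 hairpin arrays were below both shGFP arrays. Egr1 fell by 0.96 ± 0.07 log2 units over the 3 hairpins, to 0.514 times the shGFP level (limma, adjusted p = 2.4e-05), with -0.99, -0.73 and -1.16 for shDnmt3L1, shDnmt3L2 and shDnmt3L3. The fall with shDnmt3L3 was larger than with shDnmt3L2 by a difference of -0.44 (limma, adjusted p = 0.00529).

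Fos was dim, with a mean level at percentile 25.5 of the tested genes. It read 5.24 and 5.24 in shDnmt3L1 cells, 5.39 and 5.30 in shDnmt3L2 cells and 5.81 and 5.99 in shDnmt3L3 cells, against 5.29 and 5.59 in shGFP cells. Only the shDnmt3L3 arrays lay above both shGFP arrays, the shDnmt3L2 arrays lay between them and the shDnmt3L1 arrays below both. Fos rose by 0.46 with shDnmt3L3 (limma, adjusted p = 0.00809), while the values were -0.20 with shDnmt3L1 and -0.09 with shDnmt3L2, neither past the threshold. The call with shDnmt3L3 was lost without its replicate 2 (0.37, adjusted p = 0.0578 in limma) and without shGFP replicate 1 (0.31, adjusted p = 0.0530 in limma). Without shGFP replicate 1, the value with shDnmt3L1 was -0.35 and passed (adjusted p = 0.0397 in limma). The mean over the 3 hairpins was 0.06 (limma, adjusted p = 0.619).

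Counted together, 3 of the 9 detected members were higher over the 3 hairpins (Fgf4, Fgfr1 and Spred1), 4 were lower (Spry4, Dusp6, Etv4 and Egr1) and 2 were not called (Etv5 and Fos). Fgfr1 is in this count, and among the higher members with each single hairpin below, only because the hairpin arrays detected it. In the same comparison 52.2% of all tested genes were called, 27.5% higher and 24.7% lower. With shDnmt3L1, 4 members were higher and 4 lower, where 47.9% of all genes were called (25.2% higher, 22.6% lower). With shDnmt3L2 the counts were again 4 and 4, where 39.2% of all genes were called (20.8% higher, 18.3% lower). With shDnmt3L3, 4 were higher and 4 lower, where 52.2% of all genes were called (27.1% higher, 25.1% lower). Calls were this common among all genes, so the members' counts say little by themselves. The median change of the members was 0.03 over the 3 hairpins against 0.01 for all genes. The 4 comparisons share the 2 shGFP arrays, so agreement between them is not independent.

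The calls over the 3 hairpins depend on how the hairpins are treated. With hairpin as a random block, the arrays of a group, shGFP included, were treated as correlated by 1 value shared by all genes (consensus correlation 0.691). The spread between hairpins then counts beside that between arrays, but the fit is not a test on the 3 hairpin means alone. In it 323 genes were past the threshold, and 1 of the 7 called members was. That member was Egr1 (adjusted p = 0.0316 in limma). In that fit the adjusted p was 0.0535 for Dusp6, 0.0970 for Spry4, 0.111 for Spred1, 0.126 for Fgfr1, 0.173 for Fgf4 and 0.324 for Etv4. Dnmt3l itself had 0.0520 in that fit. Scaling the arrays by their medians instead of quantiles moved the median of all genes to -0.08 over the 3 hairpins and -0.10 with shDnmt3L1, and the share of higher genes among those called to 39.8%, against 52.6%. For shDnmt3L1 that share was 38.4% against 52.7%, for shDnmt3L2 41.0% against 53.2% and for shDnmt3L3 41.8% against 51.9%. The 7 called members kept their direction and their call under that scaling.

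Tests between hairpin groups, which do not use the shGFP level, gave differences for most members. The F test for any difference among the 3 hairpins was passed by 7 of the 9 members, all but Fgfr1 and Spred1, where 44.8% of all genes passed it. Between shDnmt3L3 and shDnmt3L2, 5 members differed (Fgf4, Etv4, Etv5, Egr1 and Fos), where 42.2% of all genes did. Between shDnmt3L3 and shDnmt3L1, 5 members differed (Fgf4, Spry4, Etv4, Etv5 and Fos), where 35.3% of all genes did. Between shDnmt3L1 and shDnmt3L2, 3 members differed (Spry4, Dusp6 and Etv4), where 8.05% of all genes did. Of those 880 genes 59.4% were higher with shDnmt3L1, and 45.2% under median scaling. The number of genes called between these 2 groups fell to between 143 and 194 when 1 of their 4 arrays was left out, and 2 members, Spry4 and Etv4, were then called each time.

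Apart from Spred1, the levels of the targets did not share the order that Fgf4 had. Fgf4 ran shDnmt3L3, shDnmt3L2, shDnmt3L1, shGFP from high to low, with shDnmt3L2 and shDnmt3L1 not differing beyond their spread. Spred1 had that same order, with no hairpin pair differing. Spry4 and Dusp6 ran shGFP, shDnmt3L2, shDnmt3L3, shDnmt3L1, with shDnmt3L2 and shDnmt3L3 not distinguished in either gene, nor shDnmt3L3 and shDnmt3L1 for Dusp6. Fgfr1 ran shDnmt3L1, shDnmt3L2, shDnmt3L3, shGFP, with no hairpin pair distinguished. Etv4 ran shGFP, shDnmt3L3, shDnmt3L2, shDnmt3L1, with the first pair not distinguished. Egr1 ran shGFP, shDnmt3L2, shDnmt3L1, shDnmt3L3, and neither pair of neighbours among the hairpins was distinguished. Under 3 of 20 alternatives each of these Dusp6 pairs was called, as was Egr1 between shDnmt3L1 and shDnmt3L2. Etv5 ran shDnmt3L2, shDnmt3L1, shGFP, shDnmt3L3, with the first pair not distinguished. Fos ran shDnmt3L3, shGFP, shDnmt3L2, shDnmt3L1, and among these neighbours shDnmt3L3 differed from shGFP.

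With shDnmt3L3, where Fgf4 was highest, Spry4 stood at -0.91, Dusp6 at -0.84, Etv5 at -0.64 and Egr1 at -1.16 against shGFP, Etv4 at -0.03, and Spred1 and Fos at 0.67 and 0.46. With shDnmt3L1, where Fgf4 was 0.44 above shGFP, Spry4 and Etv4 stood at -2.0 and -2.01. As a description over the 8 arrays, which fall into 4 groups and share 1 normalization, Pearson's r with Fgf4 was 0.85 for Spred1, 0.72 for Fos, 0.44 for Fgfr1 and 0.10 for Etv4. It was -0.34 for Spry4, -0.61 for Etv5, -0.64 for Dusp6 and -0.83 for Egr1. Of all other tested genes, 7.33% had a higher r with Fgf4 than Spred1 did, and 93.3% had a higher one than Egr1.

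**Figure D3:**
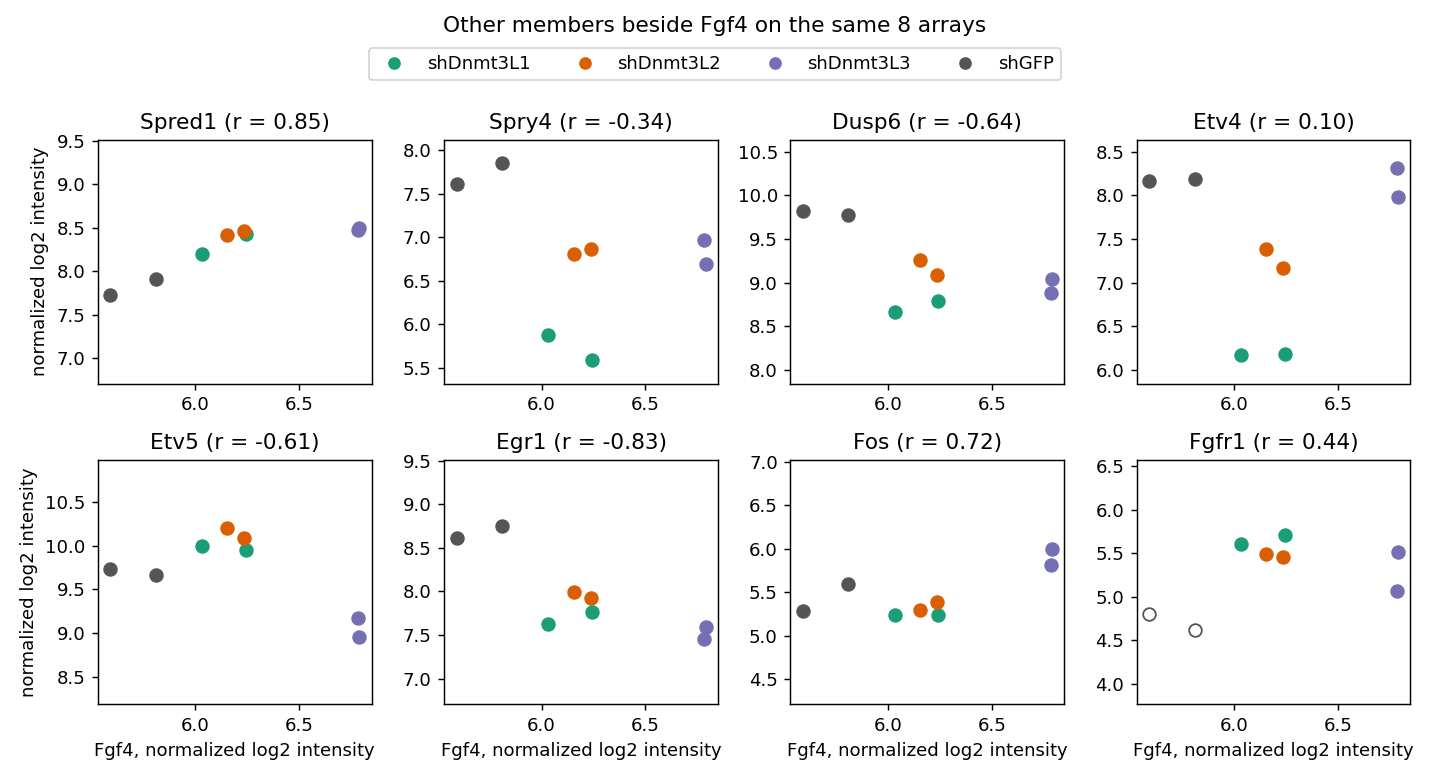
Normalized log2 intensity of 8 other members (vertical axes) against that of Fgf4 (horizontal axis) on the same 8 arrays, coloured by hairpin group. Each point is 1 array, open points are arrays where the gene was not detected, and r is Pearson's r over the 8 arrays as a description. Egr1 and Dusp6 are highest on the shGFP arrays, where Fgf4 is lowest, and Etv4 is at similar levels at both ends of the Fgf4 range.

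The genes with a profile most like Fgf4 were Golga7 (r = 0.990), which encodes a Golgi protein that assists protein palmitoylation, Psg23 (r = 0.987), a pregnancy-specific glycoprotein gene, Crym (r = 0.986), Lgals1 (r = 0.985), which encodes galectin-1, and Dennd6a (r = 0.984). Their changes with shDnmt3L3 were between 0.68 and 1.01. Those most like Spry4 were Gna14 (r = 0.989), a G protein alpha subunit gene, Mrps22 (r = 0.987), a mitochondrial ribosomal protein gene, Ddx31 (r = 0.983), Rpf1 (r = 0.981) and Tmem132cos (r = 0.981). Gna14 fell by 1.98 with shDnmt3L1. Among the members, Dusp6 and Etv4 were closest to Spry4, at r = 0.89 and 0.88, and 2.18% and 2.60% of all other genes had a higher one.

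Other genes of the FGF family, FGF receptors and FGF binding proteins were taken as a list of 17, of which 11 were tested. Over the 3 hairpins 6 were higher, 3 lower and 2 not called, with a median change of 0.26 against 0.01 for all genes, of which 52.2% were called. The counts were the same under median scaling, but with hairpin as a random block 0 of the 11 were called in limma (1 higher and 1 lower at an unadjusted p under 0.05). With shDnmt3L3 alone 2 were higher and 5 lower, with a median of -0.26, where 52.2% of all genes were called. Fgfbp1, a secreted carrier that releases FGFs from the matrix, was lower by at least 2.48-fold over the 3 hairpins, and was not detected with shDnmt3L3. Its fitted change was -1.41 (limma, adjusted p = 5.7e-05, and 0.0631 with hairpin as a random block). Fgfbp3, of the same carrier family, was not detected with shGFP and was at least 1.62-fold higher. It too passed the filter through the hairpin arrays alone, so its call lends no support. Fgf17 fell by 0.52 over the 3 hairpins (limma, adjusted p = 0.000356), with -0.80, -0.01 and -0.75 for shDnmt3L1, shDnmt3L2 and shDnmt3L3. Fgf8, a ligand of the same subfamily as Fgf17, had a mean change of 0.52 (limma, adjusted p = 0.0184) that joined 1.14 and 1.10 with shDnmt3L1 and shDnmt3L2 and -0.69 with shDnmt3L3, where 1 of 2 arrays detected it. Without shGFP replicate 1 or 2 the Fgf8 mean was 0.56 or 0.47 and no longer called. Fgf13 (0.18) and Fgf10 (-0.17) were not called over the 3 hairpins, although Fgf13 was 0.55 and 0.50 with shDnmt3L1 and shDnmt3L2 and -0.52 with shDnmt3L3, each past the threshold.

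Of 26 listed transducers between the receptor and ERK, 17 were tested. Over the 3 hairpins 6 were higher, 1 lower and 10 not called, with a median of 0.13, where 52.2% of all genes were called. Under median scaling 4 were higher and 5 lower, and with hairpin as a random block 1 of the 17 was called. Frs3, a docking adaptor that links FGF receptors to RAS, rose by 1.04 ± 0.08, with 0.97, 0.98 and 1.17 for the single hairpins (limma, adjusted p = 2.4e-05 over the 3), and was the gene called with hairpin as a random block (adjusted p = 0.0190 in limma). Rps6ka3, the kinase RSK2 downstream of ERK, rose by 0.51, Map2k1, which encodes the ERK kinase MEK1, by 0.45 and Rras by 0.42. Map2k1 was not called without shGFP replicate 1 (0.41), nor with shDnmt3L1 alone (0.32). Rras was -0.02 with shDnmt3L2, not past the threshold. The single lower gene was Mras (-0.40), named after its value was seen. It was -1.34 with shDnmt3L1, and 0.03 and 0.12, not past the threshold, with shDnmt3L2 and shDnmt3L3. Nras (-0.05) and Shc1 (-0.04), the brightest that were not called, were lower and called under median scaling (-0.30 and -0.29).

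Of 20 other feedback inhibitors of the pathway, 17 were tested, and over the 3 hairpins 6 were higher, 0 lower and 11 not called, with a median of 0.12, where 52.2% of all genes were called. In limma 0 of the 17 means over the hairpins were lower at an unadjusted p under 0.05 as well, but single hairpins gave lower calls, 3 with shDnmt3L3 (beside 3 higher) and 1 with shDnmt3L1 (beside 6 higher). Of all genes, 25.1% were lower and 27.1% higher with shDnmt3L3, and 22.6% lower and 25.2% higher with shDnmt3L1. Under median scaling 3 were higher and 0 lower over the 3 hairpins, and with hairpin as a random block 0 were called in limma (1 higher and 0 lower at an unadjusted p under 0.05). Errfi1, an inhibitor of EGF receptor kinases, rose by 0.68 (limma, adjusted p = 7.8e-05), Lztr1, which promotes RAS degradation, by 0.41, Il17rd, which encodes the FGF antagonist SEF, by 0.40, and the phosphatase Dusp1 by 0.25. Il17rd was not called without shGFP replicate 1 (0.30), and gave -0.03 when its detected probes were averaged. Dusp1 was 0.20 without shGFP replicate 1 and not called, and among single hairpins only shDnmt3L3 called it, at 0.59. Rasal2 (-0.05) and Dusp4 (-0.02) were not called over the 3 hairpins. Rasal2 fell by 0.42 with shDnmt3L3 (limma, adjusted p = 0.00828) and Dusp4 by 0.26 with shDnmt3L1 (limma, adjusted p = 0.0215). The Dusp4 mean over the hairpins was called (-0.26) when its detected probes were averaged.

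Of 30 other targets and effectors of ERK, 16 were tested, and over the 3 hairpins 3 were higher, 4 lower and 9 not called, with a median of 0.01, where 52.2% of all genes were called. Under median scaling 1 was higher and 5 lower, and with hairpin as a random block 0 were called in limma (2 higher and 0 lower at an unadjusted p under 0.05). Klf6, a Krüppel-like factor, rose by 0.63 (limma, adjusted p = 6.6e-05), and Klf2, a factor of naive pluripotency, by 0.42, which was 0.12 and not called under median scaling. The immediate early gene Ier3 fell by 0.39, with -0.81 for shDnmt3L2 and 0.04, not past the threshold, for shDnmt3L3. Phlda1 fell by 0.34, and by a value of -0.23 without shGFP replicate 2, which was not called. Ccnd1, which encodes cyclin D1, had a mean of 0.02 from rises of 0.26 and 0.32 with shDnmt3L1 and shDnmt3L2 and a fall of 0.51 with shDnmt3L3. Mcl1, a survival factor of the BCL2 family, was 0.14 and not called.

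Of the 5 listed regulators of Fgf4, whose downstream enhancer binds OCT4 and SOX2, 1 was higher over the 3 hairpins, Prdm14 at 0.23 (limma, adjusted p = 0.0213), where 52.2% of all genes were called. With hairpin as a random block 0 of the 5 were called in limma, and 0 had an unadjusted p under 0.05. Prdm14 was -0.001, 0.48 and 0.20 with shDnmt3L1, shDnmt3L2 and shDnmt3L3, and only the value with shDnmt3L2 passed the threshold. Its mean without the shDnmt3L2 arrays was 0.10 and not called. Without shGFP replicate 1 or 2 it was 0.25 or 0.20 and no longer called. The others were 0.00 for Pou5f1, which encodes OCT4, -0.15 for Sox2, -0.01 for Nanog and 0.06 for Esrrb, none past the threshold. Under median scaling these 4 were called lower, at -0.25, -0.24, -0.35 and -0.20. With shDnmt3L3, where Fgf4 was highest, Pou5f1 stood at -0.40 and Esrrb at 0.24, both past the threshold. With shDnmt3L2, Pou5f1 was 0.24 and Sox2 -0.32, and with shDnmt3L1 Esrrb was -0.28, each past the threshold.

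**Figure D4:**
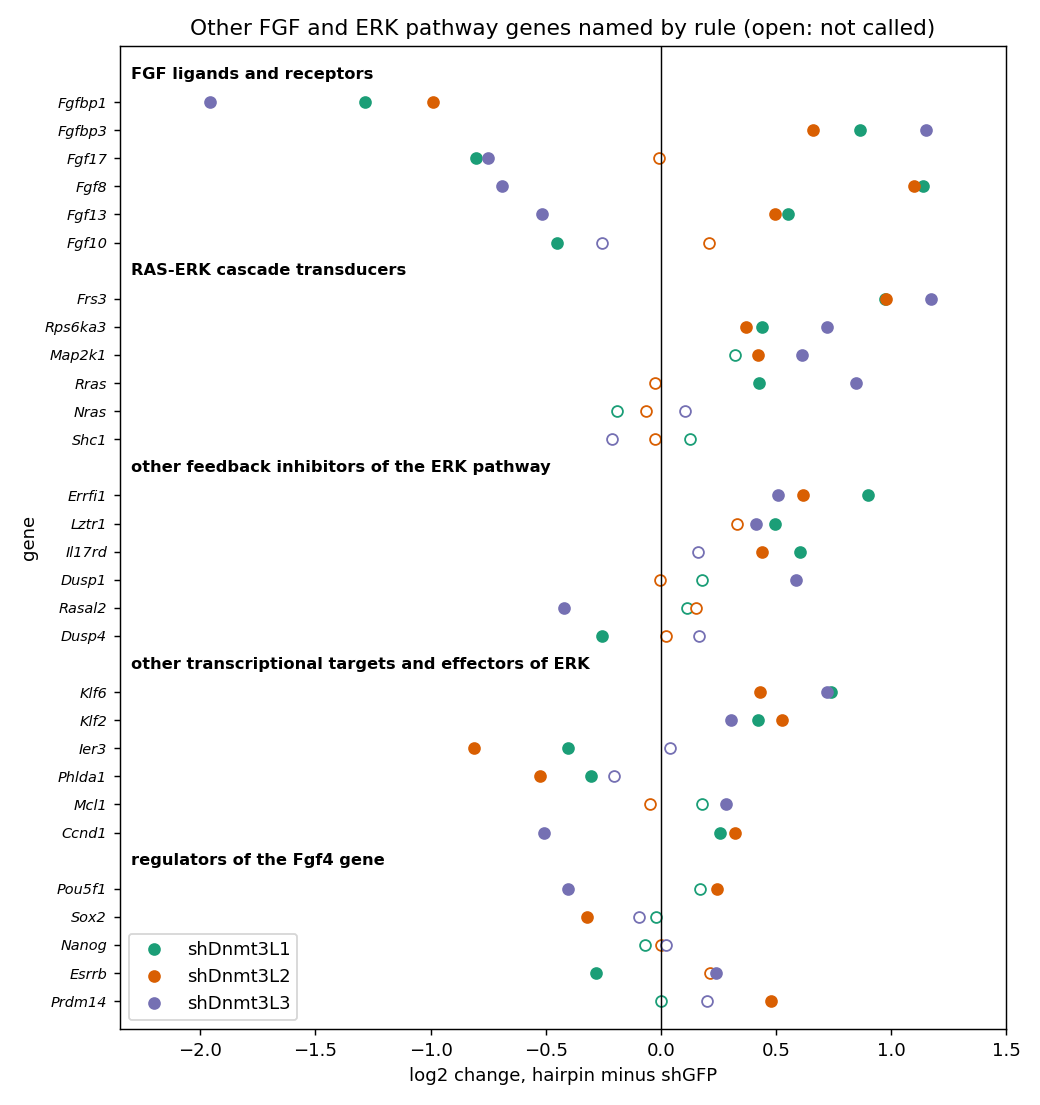
Log2 change against shGFP (horizontal axis) of the other FGF and ERK pathway genes described in the text (vertical axis), grouped by list, with shDnmt3L1, shDnmt3L2 and shDnmt3L3. Points are limma estimates from 2 arrays per group and open points are not called. Frs3, Errfi1, Klf6 and Klf2 lie above 0 with all 3 hairpins, while Fgf8, Fgf13 and Ccnd1 are above 0 with shDnmt3L1 and shDnmt3L2 and below 0 with shDnmt3L3.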

How the data were processed

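Per the labels' protocols, total RNA was extracted with TRIzol and labelled with Cy3 for Illumina arrays. The authors' deposited non-normalized table holds 1 linear intensity per probe and array, for which the submitters' processing notes name GenomeStudio 2011.1. The unnamed deposited p-value column beside each intensity was read as its detection p-value. The authors' deposited processed intensity table served only as an alternative.

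neqc corrected the background and set all arrays to common quantiles (limma 3.58.1, R 4.3.3, offset 16), so log2 changes of dim genes are understated. Kept were probes of 1 annotated gene that 2 or more arrays detected (p under 0.05), and a gene was represented by its brightest probe, giving 10930 genes. A single limma model (lmFit, eBayes) held 4 group means. Tests were two-sided with Benjamini-Hochberg adjustment over all genes, and a gene was called under 0.05. The fit was tested on simulated data. Alternatives covered scaling, background, filters, probes, blocks and left-out arrays. The number of arrays limits the precision.

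The text names the members, Dnmt3l, per pathway list up to 4 called genes with the largest changes and the 2 brightest not called, Fgf4 regulators, and the 5 genes most like Fgf4 and like Spry4. Members and lists were chosen with earlier results of these data known.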

Additional observations from a re-analysis of the deposited data

Results flagged for a closer look

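For 7 of the 9 detected members the effect against shGFP differed among the 3 Dnmt3l hairpins, by limma's F test for any difference among the hairpins with adjustment over all 10930 genes, of which 44.8% passed. The adjusted p was 2.5e-05 for Etv4, whose changes were -2.01, -0.90 and -0.03 with shDnmt3L1, shDnmt3L2 and shDnmt3L3. It was 9.97e-05 for Etv5, with changes of 0.27, 0.44 and -0.64. It was 0.000392 for Spry4, with -2.0, -0.90 and -0.91, and 0.0020 for Fgf4, with 0.44, 0.49 and 1.09. It was 0.00328 for Fos, with -0.20, -0.09 and 0.46. It was 0.0126 for Egr1, with -0.99, -0.73 and -1.16, and 0.0139 for Dusp6, with -1.08, -0.63 and -0.84. Each value rests on 2 arrays per group. Leaving out 1 array at a time, 5 to 8 members passed this test.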

How the results depend on the processing

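Over 24 alternatives, 2245 values of single named genes were recomputed. Of these, 2066 kept their direction and side of the threshold, 112 lost a call, 24 gained one and 43 changed sign. With replicate numbers as a replicate block, 5642 genes were called over the 3 hairpins and 5147, 4137 and 5624 with shDnmt3L1, shDnmt3L2 and shDnmt3L3. The deviations of same-numbered arrays correlated at -0.01 to 0.04 between groups. These values come after the arrays were set to common quantiles, and cannot exclude that same-numbered arrays were handled together. With hairpin as a random block, 323 genes and 1 member were called over the 3 hairpins. With calls limited to changes of at least 1.5-fold, 1361 genes were called over the 3 hairpins, 1786 and 5 members with shDnmt3L1, 1161 with shDnmt3L2 and 2222 with shDnmt3L3. Between hairpins that limit left 171 genes for shDnmt3L1 against shDnmt3L2, 1181 for shDnmt3L3 against shDnmt3L1, and 1460 and 3 members for shDnmt3L3 against shDnmt3L2. Between shDnmt3L1 and shDnmt3L2, 1662 genes were called with normexp from intensities alone (limma's default estimator, since it has no moments estimator), 1664 with offset 50, 1710 with trend and robust eBayes, and 143 to 776 with 1 array left out.

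Apart from Il17rd, no value that changed sign was called as reported, although Pou5f1 and Esrrb were called lower under median scaling and Nanog higher with the mean of its probes. Under median scaling the values over the 3 hairpins were -0.11 for Etv5, -0.14 for Mcl1, -0.15 for Ccnd1, -0.25 for Pou5f1 and -0.20 for Esrrb. With the mean of a gene's probes they were -0.083 for Etv5, -0.026 for Il17rd, -0.048 for Ccnd1, -0.047 for Pou5f1, 0.048 for Sox2 and 0.16 for Nanog. Without the shDnmt3L1 arrays they were -0.10 for Etv5, -0.011 for Fgf13, 0.021 for Nras, 0.10 for Dusp4, -0.091 for Ccnd1, -0.081 for Pou5f1 and 0.013 for Nanog. Without the shDnmt3L2 arrays they were -0.18 for Etv5, -0.12 for Ccnd1, -0.12 for Pou5f1 and -0.020 for Esrrb. Without the shDnmt3L3 arrays they were -0.14 for Fos, 0.051 for Shc1, 0.13 for Rasal2 and -0.033 for Esrrb, and Etv5 was 0.36 and called. With 1 array left out, the mean over the 3 hairpins ran from -0.011 to 0.061 for Etv5, -0.093 to 0.21 for Fos, -0.0022 to 0.052 for Ccnd1, -0.024 to 0.031 for Pou5f1, -0.040 to 0.010 for Nanog and -0.11 to 0.038 for Shc1. Likewise Etv4 with shDnmt3L3 ran from -0.19 to 0.14 and Fos with shDnmt3L2 from -0.24 to 0.060. Between hairpins, Fgf4 ran from -0.16 to 0.048 for shDnmt3L1 against shDnmt3L2, and for shDnmt3L3 against shDnmt3L2 Fgfr1 ran from -0.40 to 0.038 and Spry4 from -0.14 to 0.13. The cause of these changes was not tested.

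Spry2 and the third Dusp6 probe could not be read at this signal over background, and Fgfr1 has only a bound with shGFP.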
